A study of Mus musculus with 22 samples.

Results

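The miR-193 and miR-365 family is a group of 3 mature mouse microRNAs (miRNAs), mmu-miR-193a-3p, mmu-miR-193b-3p and mmu-miR-365-3p, taken by name from the 1247 miRNA entries of the array and described over 22 arrays. All 3 names were found among the spots and in the deposited table of values; the mmu prefix, for mouse, is left out below. Primary hepatocytes of C57Bl6 mice were cultured with cyclosporin A (CsA), a calcineurin inhibitor given against graft rejection that can injure the liver, at 10 µM or 50 µM, or with the solvent DMSO at 0.5%, and total RNA was taken after 24 h or 48 h. The comparisons ask which miRNAs CsA changes at each time, and the solvent arrays show what time in culture does by itself. No transgene or deletion is named in the labels, and both CsA and control cells came from the same strain. One protocol text speaks of HepG2, a human hepatoma line, whereas the other label fields name primary mouse hepatocytes.

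As named by the array files, the 24 h time point had 5 solvent arrays, 3 arrays at 10 µM and 2 at 50 µM, and the 48 h time point had 6, 3 and 3. The labels call arrays of a group biological replicates without naming animals or cultures, so p-values measure the spread between these samples. The files and the deposited table disagreed on dose: 16 of 22 table columns held an array filed under another sample name, among them 8 CsA arrays whose 2 names differ in dose. All kept their time, so results with both doses pooled (5 CsA arrays at 24 h, 6 at 48 h) are the same under either naming and come first. Results by dose follow under both namings, and replicate numbers below are those of the files. The sample labels also carry a series tag of 24 or 48, apart from the exposure time. It is 48 for all samples at 10 µM and 24 for all at 50 µM, and solvent samples carry both. Dose and this tag therefore cannot be told apart. Each miRNA is given by its brightest probe as a log2 signal relative to the 75th percentile of its array, with a floor of -4.41. A probe was called above background on an array where a share of 0.5 or more of its usable spots stood well above background. The hepatocyte miRNAs miR-122-5p, miR-192-5p and miR-194-5p were above background on all 22 arrays, the 4 leukocyte, 5 bile duct and 2 erythroid marker miRNAs on none. One marker each of endothelial and stellate cells was seen, miR-126-3p on 20 and miR-145a-5p on 12 arrays. The scaling percentile was 605 on replicate 3 at 10 µM and 48 h and lay between 188 and 373 on the other arrays, so that array stands apart, with 400 miRNAs listed as detected against 201 on the lowest array.

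A miRNA is cut from a hairpin transcript and guides Argonaute proteins to messenger RNAs that pair with its seed, the bases at positions 2 to 8. In vertebrates the miR-193 and miR-365 genes lie as neighbouring pairs and can be transcribed together. The miR-193b and miR-365 pair has been studied in brown fat differentiation, and miR-193a-3p as a miRNA lowered in several tumours. The mature sequences are shown because the seeds divide the family into 2 groups and because the 2 miR-193 members are close enough to matter for a hybridisation assay. They were taken from RefSeq (build GRCm38.p6), where all 3 names matched; capitals mark the seed.
miR-193a-3p: aACUGGCCuacaaagucccagu
miR-193b-3p: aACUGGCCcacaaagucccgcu
miR-365-3p: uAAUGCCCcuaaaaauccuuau
The 2 miR-193 members had the same base at 19 of 22 positions and differed by U9C, A20G and G21C, counted from the 5′ end with the base of miR-193a-3p first. Among 1679 mature mouse names in the RefSeq table their seed occurred in these 2 only, and that of miR-365-3p in no other name.

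Mature miR-193a-3p lies at chr11:79712009-79712030 on the plus strand, in the gene Mir193a, and miR-193b-3p at chr16:13449570-13449591, in Mir193b. The sequence of miR-365-3p is encoded at both places, at chr11:79726467-79726488 in Mir365-2 and at chr16:13453895-13453916 in Mir365-1, and the array cannot tell which gene its signal came from. The hairpins of Mir193a and Mir365-2 are 14365 bases apart and overlap no other annotated gene, and those of Mir193b and Mir365-1 are 4238 bases apart within the long non-coding RNA genes Gm32817 and Gm53058. The hairpins of the chromosome 11 pair are shown since miR-193a-3p, the member with the larger changes below, is cut from Mir193a and Mir365-2 is its neighbour; capitals mark the mature 3p arm.
Mir193a hairpin: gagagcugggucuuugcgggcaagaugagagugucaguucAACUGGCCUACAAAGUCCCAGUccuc
Mir365-2 hairpin: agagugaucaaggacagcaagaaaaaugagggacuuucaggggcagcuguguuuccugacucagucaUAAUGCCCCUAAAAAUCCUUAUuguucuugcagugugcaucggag

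Of the 3 members, miR-193a-3p and miR-365-3p were above background on 22 of 22 arrays and miR-193b-3p on 2 of 22. The processed signal of miR-193a-3p ran from 65.3 to 242 fluorescence units with a median of 141, and that of miR-365-3p from 109 to 246 with a median of 150. By their mean log2 values they ranked 67th and 64th of the 1247 entries. Both passed the filter for testing (above background on at least 3 arrays), as 289 miRNAs did, whereas miR-193b-3p did not and was not tested.

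The level of miR-193a-3p was lowest in hepatocytes exposed to CsA for 48 h. On the 5 solvent arrays at 24 h its log2 values were -1.00, -0.57, -0.61, -0.65 and -0.65 (replicates 1, 3, 4, 5 and 6). On the 5 CsA arrays at that time they were -0.68, -0.99 and -1.32 at 10 µM (replicates 1 to 3, by the files) and -0.89 and -0.51 at 50 µM (replicates 2 and 3). These groups overlapped, with the highest value of both on a CsA array. On the 6 solvent arrays at 48 h the lowest value was -1.87 (replicate 5), the median -1.03 and the highest -0.84. On the 6 CsA arrays at 48 h the lowest value was -2.61 (replicate 3 at 10 µM), the median -1.75 and the highest -1.45. The 48 h groups overlapped only through the solvent array at -1.87, since the other 5 solvent arrays, from -1.30 upwards, lay above all 6 CsA arrays. By the number after Ex. in the labels, that solvent array was of experiment 3. The CsA arrays of experiment 3 at 48 h, at -2.08 and -2.61, lay below it. No share over all tested miRNAs was taken for such a near-separation.

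**Figure D1:**
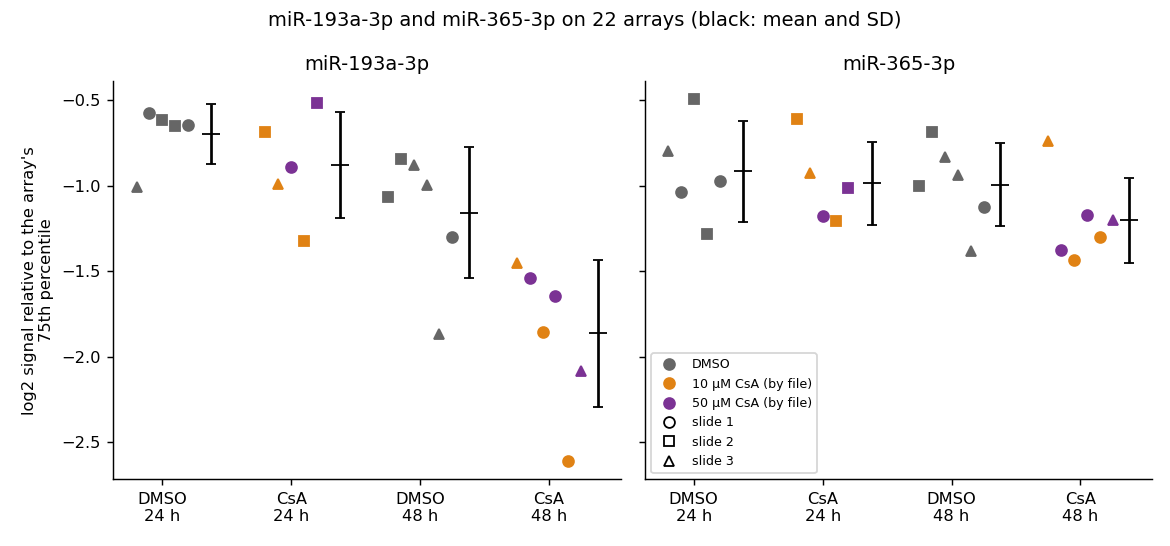
Log2 signal of miR-193a-3p (left) and miR-365-3p (right) relative to the array's 75th percentile, a point per array, by treatment and time; colour gives the dose by the array files, shape the slide, and black bars the mean and SD. For miR-193a-3p the 6 CsA arrays at 48 h lie between -2.61 and -1.45, below all others but a solvent array at -1.87, while the 4 groups of miR-365-3p overlap.

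In order, the group means of miR-193a-3p were -0.70 ± 0.17 for solvent at 24 h (SD, n = 5), -0.88 ± 0.31 for CsA at 24 h (n = 5), -1.16 ± 0.38 for solvent at 48 h (n = 6) and -1.86 ± 0.43 for CsA at 48 h (n = 6). The first 3 overlap with their neighbours. Within CsA, miR-193a-3p fell from 24 h to 48 h by 0.98 ± 0.21 on the log2 scale (SE), a 1.98-fold lower level, with an adjusted p = 0.0331 in limma. All 6 CsA arrays at 48 h lay below all 5 at 24 h, with -1.45 as the highest of the former and -1.32 as the lowest of the latter. In this comparison 0.346% of the 289 tested miRNAs were called, which is miR-193a-3p alone, and 1.38% had the 48 h group entirely below the 24 h group; the median change of all 289 was 0.16. In solvent the same step in time was -0.46 ± 0.21 and did not pass (limma adjusted p = 0.331). The difference between the 2 time courses was -0.52 ± 0.29 (adjusted p = 0.796, 95% interval -1.13 to 0.08), so a change particular to CsA was not shown. No miRNA passed the limma test for time in solvent or for that difference (0% called in each), and 38 and 8 had an unadjusted p under 0.05.

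The call for time in CsA was lost in limma without any 1 of 8 arrays. Among the CsA arrays of 24 h, the change without 1 array was -0.93 (10 µM, replicate 1, adjusted p = 0.142), -1.01 (10 µM, replicate 2, 0.0704), -0.99 (50 µM, replicate 2, 0.0942) and -0.89 (50 µM, replicate 3, 0.0853). Among those of 48 h it was -0.99 (10 µM, replicate 2, adjusted p = 0.077), -0.94 (50 µM, replicate 3, 0.0806) and -0.83 (10 µM, replicate 3, the array with the high scaling percentile, 0.0709). Without the solvent array at 24 h, replicate 5, it was -0.98 (adjusted p = 0.0503). The 4 CsA arrays of 48 h on slide 1 differed by -1.03 from the 1 of 24 h there, the 2 on slide 3 by -0.77 from the 1 of 24 h, and slide 2 held none of 48 h. With slide as a block the change was -0.89 (adjusted p = 0.259).

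Against solvent of the same time, miR-193a-3p differed by -0.18 ± 0.21 after 24 h of CsA (SE, n = 5 and 5, limma adjusted p = 1) and by -0.71 ± 0.20 after 48 h (n = 6 and 6, adjusted p = 0.0567, 95% interval -1.11 to -0.30). The 48 h value is a 1.63-fold lower level and did not pass the threshold of 0.05; by unadjusted p (0.0018) it stood 8th of 289. In limma 1.04% of the tested miRNAs were called at 48 h and 0% at 24 h, where 19 had an unadjusted p under 0.05. The solvent array at -1.87 weighed on this value: without it (replicate 5) the change was -0.85 (adjusted p = 0.0106). It also passed without the CsA arrays at 10 µM, replicate 1 (-0.79, adjusted p = 0.0221) or 50 µM, replicate 2 (-0.75, adjusted p = 0.0333), and it was -0.56 (adjusted p = 0.166) without 10 µM, replicate 3. Leaving out 1 array moved the number of miRNAs called in this comparison between 1 and 61, against 3 in the main fit. Scaled over all probes of an array the change of miR-193a-3p was -1.13 (adjusted p = 0.0546), where the median of all 289 miRNAs moved from 0.10 to -0.16. Within slide 1 it was -0.62 (4 CsA arrays and 1 solvent array) and within slide 3 it was -0.52 (2 and 3). Within experiments 1, 2 and 3, as the number after Ex. in the labels was read (2 CsA and 2 solvent arrays each), it was -0.54, -0.81 and -0.76. With that number as a block it was -0.71 and passed (limma adjusted p = 0.0346), in a fit that called more miRNAs than the main fit. Both the time and the 48 h comparison use the same 6 CsA arrays, so they are not independent of each other. In RNA from whole cultures, fewer cells carrying the miRNA and less of it per cell cannot be told apart.

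On the array that stands apart, replicate 3 at 10 µM and 48 h, the unscaled processed signal of miR-193a-3p was 99.2, inside the 65.3 to 115 of the other 5 CsA arrays at 48 h. Its scaled value, -2.61, was the lowest of all 22. Unscaled, the signals of CsA arrays at 24 h ran from 106 to 196 and those of solvent arrays at 48 h from 91.5 to 156, so both groups overlapped with CsA at 48 h. In the deposited table of log2 values, with each column named by the array it held, CsA against solvent at 48 h was -0.95 (limma adjusted p = 0.0546) and 48 h against 24 h in CsA was -1.16 (adjusted p = 0.0533). The other, dimmer probe of miR-193a-3p was above background on 18 arrays and gave -0.70 for CsA at 48 h and -1.02 for time in CsA, against -0.71 and -0.98 for the brighter.

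The member miR-365-3p showed no difference that passed the test in any pooled comparison. Its log2 values on solvent arrays at 24 h were -0.79, -1.03, -0.49, -1.28 and -0.97 (replicates 1, 3, 4, 5 and 6). On CsA arrays at 24 h they were -0.61, -0.93 and -1.21 at 10 µM and -1.18 and -1.01 at 50 µM, all within the range of the solvent arrays. At 48 h the lowest, median and highest values were -1.38, -0.97 and -0.68 in solvent and -1.43, -1.25 and -0.74 in CsA. Of the CsA arrays at 48 h, 5 lay at -1.17 or below and 1 (10 µM, replicate 1) at -0.74, and the groups overlapped over nearly their whole range. The change under CsA was -0.07 ± 0.16 at 24 h (SE, limma adjusted p = 1) and -0.21 ± 0.15 at 48 h (adjusted p = 0.385), with 95% intervals of -0.41 to 0.27 and -0.52 to 0.10. Scaled over all probes the 48 h value was -0.63, and it did not pass. The change with time was -0.08 ± 0.16 in solvent (adjusted p = 0.989) and -0.22 ± 0.16 in CsA (adjusted p = 0.436). Its 2 probes, each above background on 22 arrays, gave -0.21 and -0.23 for CsA at 48 h.

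**Figure D2:**
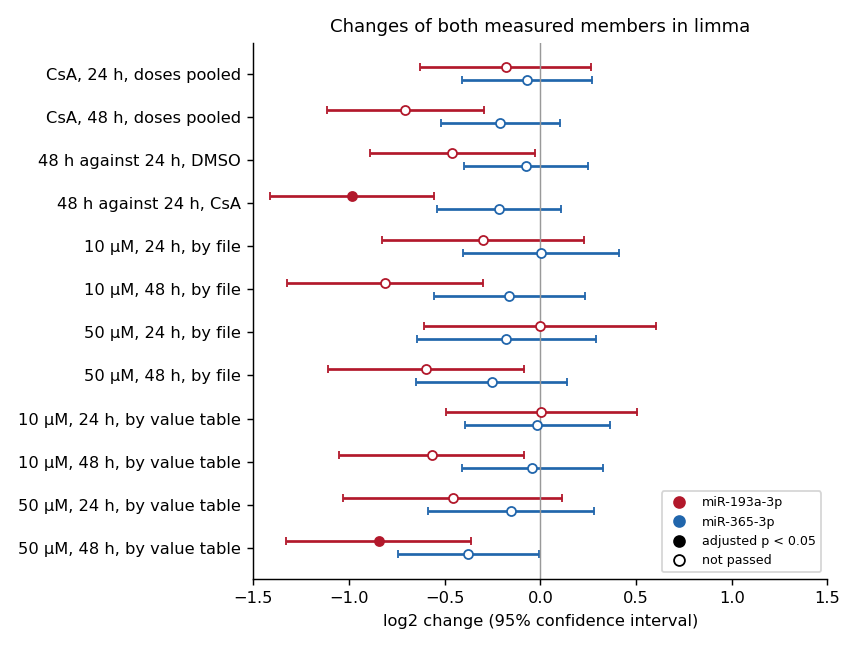
Log2 change of miR-193a-3p (red) and miR-365-3p (blue) with its 95% confidence interval in limma, for CsA against solvent and 48 h against 24 h; filled points have an adjusted p under 0.05. Filled points are those of miR-193a-3p for time in CsA (-0.98) and for 50 µM at 48 h under the table's names (-0.84).

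To ask whether the 2 tested members changed unequally, the log2 ratio of miR-193a-3p to miR-365-3p was taken on each array, which also removes the scaling. Since miR-365-3p is encoded beside both miR-193 genes, the ratio does not compare the products of 1 locus alone. Only differences of this ratio between groups are meaningful, since the 2 probes need not be equally bright per molecule. In solvent at 24 h the ratios were -0.21, 0.46, -0.12, 0.63 and 0.33 (replicates 1, 3, 4, 5 and 6). In CsA at 24 h they were -0.08, -0.06 and -0.12 at 10 µM and 0.29 and 0.50 at 50 µM. Both 24 h groups thus held low and high arrays. At 48 h the ratios ran from -0.48 to -0.05 in solvent, and in CsA they were -0.71, -0.42 and -1.31 at 10 µM and -0.16, -0.48 and -0.88 at 50 µM. All 6 CsA arrays at 48 h were below all 5 CsA arrays at 24 h. The values of miR-193a-3p alone separated the same arrays, as those of 1.38% of the tested miRNAs did in this direction. The separation of the ratio is therefore not independent of that result, and no share over other pairs of miRNAs was taken. Of the 6 CsA arrays at 48 h, 3 (10 µM, replicate 2, and 50 µM, replicates 1 and 2) lay within the range of solvent at 48 h. Its lower end is solvent replicate 5 at -0.48, and the next solvent array stood at -0.17.

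The mean ratio was 0.22 ± 0.37 in solvent and 0.11 ± 0.27 in CsA at 24 h (SD, n = 5 each), and -0.16 ± 0.17 and -0.66 ± 0.40 at 48 h (n = 6 each). In an exact two-sided permutation test over arrays the ratio was lower in CsA than in solvent at 48 h by a log2 difference of -0.50 (p = 0.0195 of 924 arrangements, adjusted p = 0.039 over the 4 comparisons of the ratio). At 24 h the difference was -0.11 (exact p = 0.635, adjusted p = 0.635). From 24 h to 48 h the ratio changed by -0.77 in CsA (exact p = 0.00433, the smallest that 462 arrangements can give, adjusted p = 0.0173) and by -0.38 in solvent (exact p = 0.0628, adjusted p = 0.0837). The comparisons with time were added after the values were seen. All these permutations left arrays of the same experiment number unpaired, so their p-values ignore any likeness within a number. No test of the ratio with that number as a block was run. At 48 h of CsA, miR-193a-3p was thus lower relative to miR-365-3p of the same RNA, both against solvent and against 24 h.

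For CsA at 48 h the unadjusted exact p of the ratio stayed between 0.00649 and 0.0411 when any 1 array was left out, but the adjusted p passed 0.05 without 8 of them. These were 10 µM replicate 1 (-0.49, exact test adjusted p = 0.0519) and replicate 3 (-0.37, 0.0649), 50 µM replicate 3 (-0.45, 0.0606), and solvent replicates 1 (-0.48, 0.0823), 2 (-0.50, 0.0649), 3 (-0.47, 0.0823), 4 (-0.47, 0.0823) and 6 (-0.50, 0.0606). For time in CsA no single array ended the call (adjusted p of 0.013 to 0.039, difference -0.87 to -0.64). For time in solvent the call appeared without replicate 1 (-0.49, exact test adjusted p = 0.026) or 4 (-0.47, adjusted p = 0.0381) of 24 h. Within slides 1 and 3 the ratio differed by -0.42 and -0.60 for CsA at 48 h and by -0.88 and -0.73 for time in CsA.

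**Figure D3:**
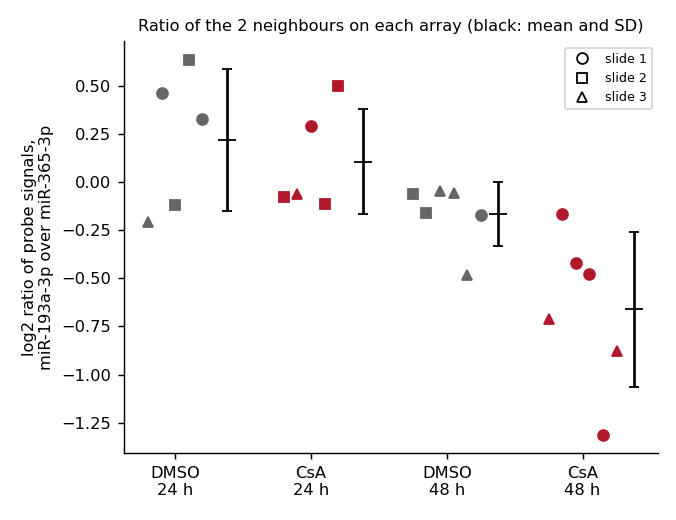
Log2 ratio of the miR-193a-3p signal to the miR-365-3p signal on each array, by treatment and time, with the slide as shape and the mean and SD in black. The CsA arrays at 48 h run from -1.31 to -0.16, below all CsA arrays at 24 h, which miR-193a-3p alone separates as well.

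By dose, the namings disagree on where the lower miR-193a-3p lies, and in each the 2 doses share their solvent arrays. In the labels dose also goes with the series tag, so the 2 cannot be told apart. By the files, 10 µM for 48 h gave -0.81 ± 0.24 (SE, n = 3 and 6, limma adjusted p = 0.0554), in a comparison with 6.23% of miRNAs called. At 50 µM for 48 h it was -0.60 ± 0.24 (adjusted p = 0.576, 0.346% called). At 24 h the values by the files were -0.30 ± 0.25 at 10 µM (n = 3 and 5, adjusted p = 0.867) and -0.00 ± 0.29 at 50 µM (n = 2 and 5, adjusted p = 1), with 0% called in each by limma and 21 and 7 miRNAs at an unadjusted p under 0.05. The 10 µM value at 48 h passed the limma test without 10 µM, replicate 1 (-1.08, adjusted p = 0.00507), without 50 µM, replicate 1 (-0.81, adjusted p = 0.0451) and without solvent replicate 5 (-0.96, adjusted p = 0.0195). Without 10 µM, replicate 3, the array that stands apart, it was -0.49 (limma adjusted p = 0.561). Leaving out 1 array moved the number of miRNAs called in this comparison between 0 and 88, against 18 in the main fit.

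Under the table's names, 50 µM for 48 h gave a fall of miR-193a-3p by 0.84 ± 0.23 (SE, n = 3 and 6, limma adjusted p = 0.00709), a 1.80-fold lower level. In that comparison 37.7% of the tested miRNAs were called, and 10.4% of the tested miRNAs were called lower, and miR-193a-3p stood 72nd of 289 by p, so the call is one among many there. Its 3 arrays, at -1.54, -1.85 and -2.61, include the array that stands apart, without which the change was -0.54 (adjusted p = 0.0932). They overlapped with the solvent array at -1.87. At 10 µM for 48 h the table's names gave -0.57 ± 0.23 (adjusted p = 0.695, 1.04% called), and at 24 h 0.00 ± 0.24 for 10 µM and -0.46 ± 0.27 for 50 µM (adjusted p = 1 and 0.446, with 0% and 3.81% called by limma, and 16 at an unadjusted p under 0.05 in the former). Set against each other, 50 µM and 10 µM differed in miR-193a-3p by 0.30 ± 0.31 at 24 h and 0.22 ± 0.28 at 48 h by the files, and by -0.46 ± 0.30 and -0.28 ± 0.27 under the table's names (limma adjusted p from 0.429 to 1). The sign of the dose difference therefore differs between the namings, with 95% intervals at 48 h of -0.37 to 0.81 and -0.84 to 0.28. At 48 h it also turned within each naming without the array that stands apart, to -0.10 by the files and to 0.03 under the table's names.

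For miR-365-3p the changes at 48 h were -0.16 ± 0.19 at 10 µM and -0.25 ± 0.19 at 50 µM by the files (limma adjusted p = 0.669 and 0.692). Under the table's names they were -0.04 ± 0.17 and -0.38 ± 0.17 (adjusted p = 1 and 0.0936). The last of these passed in limma without solvent replicate 5 (-0.45, adjusted p = 0.0283) and under 4 other ways of processing: normexp (-0.48, adjusted p = 0.0095), scaling over all probes (-0.95, 0.0177), quantile normalisation (-0.63, 0.0183) and the deposited values (-0.69, 0.0189). In that comparison 37.7% of the 289 tested miRNAs were called in the main fit, where miR-365-3p stood 138th by p. Over the alternatives 57 to 173 miRNAs were called there, so these calls are not particular to miR-365-3p. At 24 h its values lay between -0.18 and 0.00 in all 4 dose comparisons.

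The third member, miR-193b-3p, was above background on 2 solvent arrays at 48 h only, replicates 1 and 2, both of experiment 1 and on slide 2. Its processed signal there was 18.3 and 24.2, with 94.7% and 100% of its spots well above background. On the other 20 arrays it was not well above background, with signals from -0.73 to 8.47, and the deposited table lists its minimum of -1 for these and 3.83 and 4.22 for the 2 arrays. Its other probe was above background on 1 array. On the 2 arrays miR-193a-3p, which differs from it at 3 bases, had signals of 133 and 156. On the array with the highest miR-193a-3p signal, 242 (solvent, 24 h, replicate 3), miR-193b-3p read 2.92. Since 4 of 6 solvent arrays at 48 h had only a bound, no fold is given, and a lower level in CsA could not be measured.

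**Figure D4:**
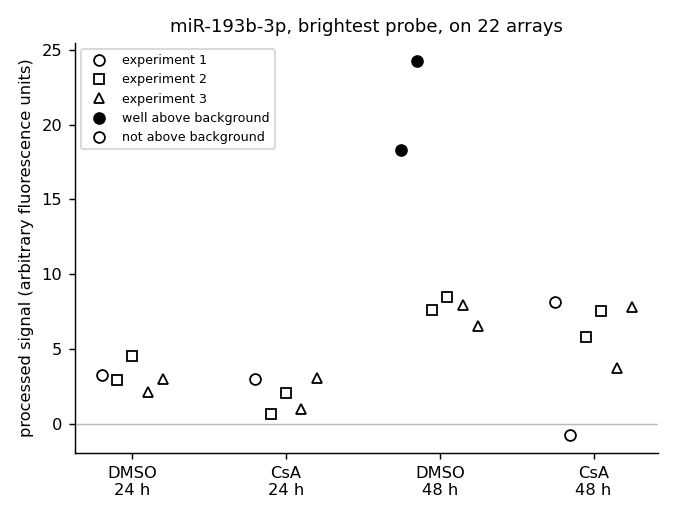
Processed signal of miR-193b-3p (brightest probe, fluorescence units) on each array by treatment and time, with the experiment number of the labels as shape. Filled points, at 18.3 and 24.2, are the 2 arrays on which it was well above background.

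The arms cut from the other side of the same hairpins gave almost no signal. The miR-193a-5p probe was above background on 3 arrays and miR-193b-5p and miR-365-1-5p on 1, while miR-365-2-5p was above background on none. After scaling none of them rose clear of the floor (highest -4.40), so no change was read from them. In the deposited table miR-193a-5p lay at the minimum of -1 on 9 of 22 arrays and reached 2.51 at most. Each of the other opposite arms lay at that minimum on 21 of 22.

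Over the 22 arrays miR-193a-3p and miR-365-3p correlated with a Pearson r of 0.59 and a Spearman rho of 0.57, and with an r of 0.49 around the group means. On each array both miRNAs share the RNA and the scaling factor, so these values are a description. The 5 tested miRNAs most like miR-193a-3p by Pearson r were miR-30e-5p (0.83), miR-26a-5p (0.77), miR-101a-3p (0.75), miR-192-5p (0.75) and miR-30a-3p (0.72). Around the group means their r was 0.64, 0.68, 0.62, 0.46 and 0.39 in that order, for the last 2 below the 0.49 of miR-365-3p. The 5 most like miR-365-3p were let-7g-5p (0.94), miR-26a-5p (0.92), let-7c-5p (0.92), miR-99a-5p (0.92) and miR-26b-5p (0.91), with an r of 0.91 to 0.94 around the group means. The closest for miR-365-3p lay above those of miR-193a-3p, and miR-193a-3p was not among them.

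Of 8 miRNAs listed as liver context (miR-122-5p, miR-192-5p, miR-194-5p, miR-148a-3p, miR-101a-3p, miR-101b-3p, miR-22-3p and miR-30a-5p), none passed the limma test for CsA at 48 h or for time in CsA. Whether each is particular to liver was not tested. Of the 8, miR-101a-3p was above background on 18 of 22 arrays. For time in CsA all 8 values were negative with a median log2 change of -0.36, where 95 of all 289 tested miRNAs were negative and the median was 0.16. The median over all tested miRNAs moves with the scaling, as given at the end, and the 8 are shown under the main scaling only. By mean log2 value they ranked from 3rd (miR-122-5p) to 190th (miR-101a-3p) and were not matched for brightness with the other miRNAs. For time in solvent 7 of the 8 were negative as well, with a median of -0.24 against 0.04 over all tested miRNAs. In CsA the most abundant, miR-122-5p, which supports cholesterol metabolism in hepatocytes, stood at -0.30 ± 0.09 (SE, limma adjusted p = 0.107). The cluster mates miR-192-5p and miR-194-5p stood at -0.41 ± 0.14 (adjusted p = 0.134) and -0.44 ± 0.14 (adjusted p = 0.107). For CsA against solvent at 48 h 5 of 8 were negative with a median of -0.15, against a median of 0.10 over all tested miRNAs. The summed scaled signal of the 3 hepatocyte markers was 57.0 to 66.5 in CsA at 24 h and 45.2 to 57.1 in CsA at 48 h, and 48.3 to 65.9 and 43.8 to 55.2 in solvent. This sum is mostly miR-122-5p, whose median log2 value was 5.52, against 1.87 for miR-192-5p and 0.46 for miR-194-5p. The endothelial miR-126-3p stood at 0.28 ± 0.25 and the stellate miR-145a-5p at 0.28 ± 0.26 for CsA at 48 h (SE, limma adjusted p = 0.495 and 0.507). For time in CsA they stood at -0.49 ± 0.26 and 0.47 ± 0.27 (adjusted p = 0.332 and 0.364), and for time in solvent at -0.64 ± 0.26 and 0.07 ± 0.27 (adjusted p = 0.307 and 0.989). The part of any of these markers in the values of miR-193a-3p was not tested.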

How the data were processed

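Each array was a spot file from the scanner software (version 10.7.3.1 of Feature Extraction; source: file headers) with a processed signal intensity per spot as deposited, background-corrected by that software, for 49880 non-control spots, 3105 probes and 1247 miRNAs. The authors' deposited table holds log2 values. R 2.15.2 is named in the submitters' processing notes. All 22 of its columns were rebuilt within 1e-06 from the files' total gene signal by a minimum of 0.5, quantile normalisation and log2, which showed the array in each column. The design text speaks of 24 arrays, and the other 2 were not analysed here.

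Spots not marked as outliers were averaged per probe, scaled to the 75th percentile that each array showed over 281 probes above background everywhere, given a floor of 0.0471, then log2-transformed. No spot was saturated (0 spots). The brightest probe stood for a miRNA. In R 4.3.3 limma 3.58.1 (lmFit and eBayes) was fitted to 289 miRNAs over 4 groups (doses pooled) or 6, with p-values adjusted over all 289 by the Benjamini-Hochberg method and called under 0.05. The fit was tested on simulated data. The number of arrays limits the precision. The miRNAs named are the 3 members, the opposite arms, 8 miRNAs listed as liver context, cell type markers and, per tested member, the 5 with the highest correlation. Members and lists were chosen with earlier results of these data known. Alternatives changed background correction, scaling, the filter on dim probes, the probe summary, slide and experiment blocks and the array names, and left out each array.

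The labels carry a number from 1 to 3 after the abbreviation Ex., read here as an experiment number. Deviations from group means of the same number correlated at 0.05 to 0.77 in 18 pairs of groups, with a median of 0.36 and 17 of them over 0.1. Of 12 means of a group and number, 11 correlated best with their own number. The labels name no shared animal or batch, and 1 pair lay under the limit of 0.1, so the main fits and permutations left the arrays unpaired. That choice does not show that arrays of the same number are independent. Fits with the number as a block are given at the end.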

Additional observations from a re-analysis of the deposited data

Results flagged for a closer look

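In a check of single arrays against the rest of their group, over 8 sets of values (2 members in 4 groups), miR-193a-3p on the solvent array of 24 h, replicate 1, stood apart at -1.00, its gap to the next array being a share of 0.825 of the group's range. Chance gives such a mark in about 1 of 20 such sets. That array had the lowest scaling percentile, 188, and its unscaled signal of 94.0 was the lowest of its group.

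Outside the comparisons, 2 opposite arms were above background on replicate 3 at 10 µM and 48 h alone, the array with the scaling percentile of 605. There miR-193b-5p read 16.4 against at most 6.79 on solvent arrays, and miR-365-1-5p read 26.1 against at most 6.08. Both lay at the floor after scaling.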

How the results depend on the processing

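Over 550 alternative values each, miR-193a-3p kept its side of the threshold in 527 and miR-365-3p in 544, and none reversed a call. Most of these values belong to comparisons without a call in the main fit, where keeping the side says little. For time in CsA, the only pooled call, 12 of 32 alternatives lost it. The sign was the other one in 23 and 34 of the 550 values, none of them called, the largest 0.46 and 0.16 in size. The call of miR-193a-3p for time in CsA was lost when scaled over all probes (-1.32, limma adjusted p = 0.0807), after quantile normalisation (-1.04, 0.165), in the deposited table (-1.16, 0.0533) and with slide as a block (-0.89, 0.259). Leaving out 1 array gave -1.09 to -0.83. The median of all miRNAs in that comparison moved from 0.16 to -0.08 over all probes and 0.01 after quantile normalisation. For CsA at 48 h the total gene signal gave a call at -0.83 (adjusted p = 0.0351), the table -0.95, and leaving out 1 array -0.85 to -0.56. At 10 µM by the files leaving out 1 array gave -1.08 to -0.49. The 50 µM value of -0.60 by the files became -0.84 under the table's names, where leaving out 1 array gave -1.08 to -0.54. Over all alternatives the comparison of 50 µM with solvent at 48 h under the table's names called 57 to 173 miRNAs. For miR-365-3p in that comparison calls appeared with normexp (-0.48), all-probe scaling (-0.95), quantile normalisation (-0.63) and the deposited values (-0.69), and leaving out 1 array gave -0.45 to -0.31. The cause of these shifts was not tested. Leaving out 1 array, the ratio of the members differed by -0.60 to -0.37 for CsA at 48 h and by -0.49 to -0.28 for time in solvent; other processing gave up to -0.28 for the former and, for time in CsA, all 28 alternatives lay between -0.87 and -0.46.

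With the experiment number as a replicate block, miR-193a-3p gave -0.71 for CsA at 48 h (adjusted p = 0.0346), -1.02 for time in CsA (0.00823) and -0.81 at 10 µM and 48 h by the files (0.0345), and miR-365-3p -0.38 at 50 µM and 48 h under the table's names (0.0375). The block raised the miRNAs called for CsA at 48 h from 3 to 24 and for time in solvent from 0 to 10. As a hint from the data, 11 of 12 means of a group and number correlated best with their own number. Numbers of miRNAs called leaned on single arrays: for CsA at 48 h 1 to 61, for 10 µM at 48 h by the files 0 to 88, and for 50 µM at 48 h under the table's names 72 to 173. Processed signals near background limit what can be said of miR-193b-3p and the opposite arms.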
